A study of Mus musculus with 6 samples.

Results

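The miRNAs described here are both arms of miR-582 (mmu-miR-582-3p and mmu-miR-582-5p), the 5p arm of miR-218 (mmu-miR-218-5p) and the 5p arm of miR-7a (mmu-miR-7a-5p), 4 of the 1065 names in the deposited table. They were taken as a listed set of miRNAs whose hairpins sit singly in introns of protein-coding genes, and they were selected on the RPM values of these same libraries, with their difference between treated and control cells already known. Those differences are therefore given as a description, with a standard error and no p-value, and how many members passed the test over all names is stated only as part of how they were chosen.

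Small RNA was sequenced from C2C12 cells, a mouse myoblast line, in 3 libraries of cells stimulated with TGF-beta and 3 libraries of control cells. TGF-beta is a secreted signalling protein that restrains the differentiation of myoblasts and promotes fibrosis. The labels give no TGF-beta isoform, dose or duration and name no vehicle for the control cells, and all libraries share the 1 cell line. The extraction text speaks of retinas, which goes against the cell line named elsewhere in the labels. The level of a name is given in RPM, the reads of that name per 1000000 miRNA reads of its library, without correction for length. Since a library always sums to the same total, a value is a share of the miRNA reads. In such bulk samples, fewer cells of a type and less of a miRNA per cell cannot be told apart.

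A miRNA is cut from a hairpin transcript that yields a 5p and a 3p arm, and one of them is usually kept while the other is largely degraded. The loaded arm finds its target mRNAs mainly by its seed, here bases 2 to 8. A hairpin inside an intron can be made from the transcript of its host gene, though some intronic hairpins have their own promoter. miR-582 lies in Pde4d, which encodes a phosphodiesterase that degrades cyclic AMP. miR-218 lies in Slit2 and in Slit3, which encode secreted guidance ligands of the Robo receptors, and is known for its abundance in motor neurons. miR-7a has a copy in Hnrnpk, which encodes an RNA-binding protein, and is best known from brain, pituitary and pancreatic islets.

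The mature sequences of the members are printed because their seeds set them apart from each other and decide which other names could be mistaken for them. Capitals mark the seed, the sequences are RefSeq's (GRCm38.p6), and all 4 members matched. The 4 seeds are distinct.
miR-582-3p: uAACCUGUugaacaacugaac
miR-582-5p: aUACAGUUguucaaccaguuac
miR-218-5p: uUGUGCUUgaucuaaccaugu
miR-7a-5p: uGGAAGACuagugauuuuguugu
miR-7b-5p: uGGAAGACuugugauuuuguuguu

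miR-7b-5p is shown last because it is the nearest relative of a member. It shares the seed of miR-7a-5p and differs from it by a single substitution, A10U, counted from 1 at the 5′ end with the base of miR-7a-5p first, and by an added base at its 3′ end. The only other mature mouse sequence with a member's seed in the RefSeq table is miR-7002-3p, which has the seed of miR-218-5p. It differs from miR-218-5p at 6 of 19 bases compared and has no row in the deposited table.

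The single hairpin of miR-582 is shown because both of its arms are members. Capitals mark the 5p and the 3p arm, and the coordinates are those of GRCm38.p6 on the plus strand, chr13:109324744-109324824.
Mir582: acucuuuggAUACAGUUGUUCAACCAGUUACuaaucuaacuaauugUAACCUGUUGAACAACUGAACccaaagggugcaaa

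In GENCODE M21, which is on the same GRCm38 assembly, this hairpin lies in an intron of 6 annotated transcripts of Pde4d, on the host's strand. The submitters' processing notes name mm9 as the build, and the deposited table carries no coordinates, so all positions here come from the reference alone.

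miR-218-5p and miR-7a-5p are each made from more than 1 hairpin with an identical mature arm, so their reads cannot be divided between the loci. Mir218-1 lies at chr5:48223942-48224051 on the plus strand, in an intron of 7 transcripts of Slit2. Mir218-2 lies at chr11:35616816-35616925 on the plus strand, in an intron of 1 transcript of Slit3. Mir7-1 lies at chr13:58392779-58392886 on the minus strand, in an intron of 12 transcripts of Hnrnpk. Mir7-2 lies at chr7:78888277-78888373 on the plus strand, and no annotated transcript other than its own spans it, so "intronic" holds for only 1 of the 2 miR-7a hairpins.

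The 3p arms can tell these hairpins apart, and they are shown for that reason, with the seed in capitals.
miR-7a-1-3p: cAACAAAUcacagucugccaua
miR-7a-2-3p: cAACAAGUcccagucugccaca
miR-218-1-3p: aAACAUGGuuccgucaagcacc
miR-218-2-3p: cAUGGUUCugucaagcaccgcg

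From miR-7a-1-3p to miR-7a-2-3p the substitutions are A7G, A10C and U21C. Of these 4 arms, miR-7a-1-3p and miR-218-1-3p are measured in the table used here, which has no row for the other 2.

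The libraries were deep and even, with 9015669 to 9450936 miRNA reads in the TGF-beta libraries and 9273231 to 9813063 in the control libraries. A single read was worth 0.102 to 0.111 RPM. TGF-beta replicate 3 stood slightly apart, its log values correlating across names with those of its group at 0.994 on average, where the rest reached 0.995 to 0.997. The muscle markers miR-206-3p, miR-1a-3p, miR-133a-3p and miR-133b-3p were all present, with a summed level of 100900 to 102100 RPM in TGF-beta and 134100 to 153600 RPM in control libraries. Of 6 retina miRNAs, miR-204-5p was at 0 in all 3 TGF-beta libraries and at 0.216 to 0.427 RPM in control, and miR-211-5p was at most at 0.215 RPM in TGF-beta and 0.107 RPM in control libraries. The summed retina list ran from 5119 to 7494 RPM in TGF-beta and from 6244 to 7258 RPM in control libraries and was nearly all miR-182-5p and miR-183-5p. The part of these markers, or of another tissue, in the results was not tested.

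miR-582-3p, the more abundant arm of the Pde4d hairpin, was higher with TGF-beta in every treated library. It stood at 213.7, 172 and 173 RPM in TGF-beta replicates 1, 2 and 3, and at 86.7, 120.3 and 110.6 RPM in control replicates 1, 2 and 3. The groups did not overlap, since the lowest treated value lay well above the highest control value. The mean was 186 ± 23.6 RPM in TGF-beta and 105.9 ± 17.3 RPM in control libraries (SD, n = 3 each), a ratio of 1.76, and the log2 fold change on the log2(RPM + 1) scale was 0.82 (SE 0.16). These values rest on 1563 to 1990 reads in TGF-beta and 851 to 1116 reads in control libraries.

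miR-582-5p, the other arm of the same hairpin, was rare and its groups overlapped. It had 8.16, 5.82 and 3.66 RPM in TGF-beta replicates 1, 2 and 3, against 2.96, 3.24 and 3.73 RPM in control replicates 1, 2 and 3. TGF-beta replicate 3 lay within the control range, and the other treated libraries lay above it. The mean was 5.88 ± 2.25 RPM in TGF-beta and 3.31 ± 0.39 RPM in control libraries (SD, n = 3 each). The ratio of the means was 1.78, close to that of the 3p arm, while the log2 fold change on the log2(RPM + 1) scale was 0.63 (SE 0.23). At 33 to 76 reads in TGF-beta and 29 to 35 in control libraries, counting alone gives a relative error of 17.4% at the lowest treated and 18.6% at the lowest control value.

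miR-218-5p, shared by the Slit2 and Slit3 hairpins, was the member that was lower with TGF-beta. Its levels were 324, 284 and 358 RPM in TGF-beta replicates 1, 2 and 3, against 423, 556 and 568 RPM in control replicates 1, 2 and 3. The groups did not overlap, and control replicate 1 was the control library nearest to the treated ones. The mean was 322 ± 36.7 RPM in TGF-beta and 516 ± 80.2 RPM in control libraries (SD, n = 3 each), a ratio of 0.624 and a log2 fold change of −0.67 (SE 0.15).

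miR-7a-5p was the most abundant member by a wide margin and took 0.551% of the miRNA reads in TGF-beta and 0.381% in control libraries. It stood at 4682, 5567 and 6274 RPM in TGF-beta replicates 1, 2 and 3, against 4474, 3943 and 3006 RPM in control replicates 1, 2 and 3. The groups did not overlap, but the gap between TGF-beta replicate 1 and control replicate 1 was narrow compared with the spread inside either group. The mean was 5507 ± 798 RPM in TGF-beta and 3807 ± 743 RPM in control libraries (SD, n = 3 each), a ratio of 1.45 and a log2 fold change of 0.54 (SE 0.14). Counting error was far below this spread. It was 0.479% of the lowest value in TGF-beta and 0.596% in control libraries, where the SD between replicates was 14.5% of the mean in TGF-beta and 19.5% in control libraries.

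**Figure D1:**
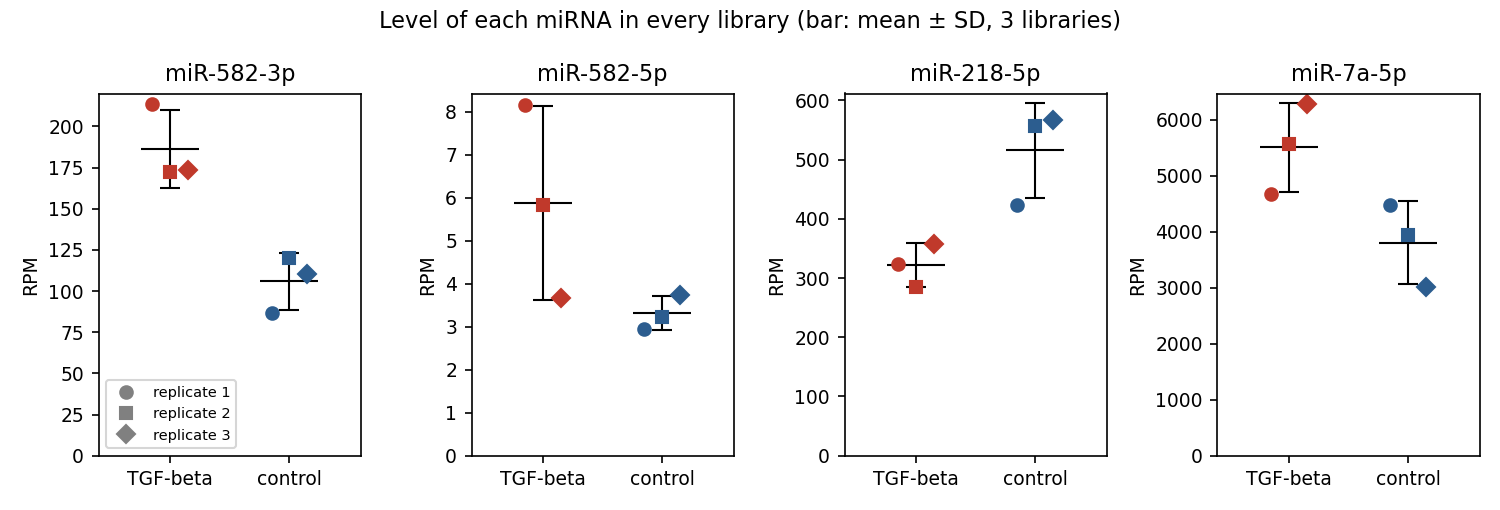
Level in RPM (vertical axes, each from 0) of the 4 miRNAs in the 3 TGF-beta libraries (red, left) and the 3 control libraries (blue, right); symbols give the replicate number and bars the mean ± SD. miR-582-3p and miR-7a-5p lie higher in all 3 TGF-beta libraries and miR-218-5p lower in all 3, whereas the TGF-beta replicate 3 value of miR-582-5p, 3.66, lies inside the control range.

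Treated and control values did not overlap for 3 of the 4 members and for 21.3% of the 418 tested names. The same 3, miR-582-3p, miR-218-5p and miR-7a-5p, were past the threshold of limma (Benjamini-Hochberg adjusted p under 0.05), which 7.89% of the tested names passed. edgeR and DESeq2 on the recovered reads also called 3 of the 4, and 6.94% and 8.22% of the names with an adjusted p. Nothing is read from either count, since the members were chosen with this contrast known. By mean over the 6 libraries, miR-7a-5p was number 27 of 1065 names, between miR-148a-3p and miR-125b-5p at 4900 and 4641 RPM. miR-218-5p was number 83, between miR-145a-5p at 454.5 and miR-361-3p at 408 RPM. miR-582-3p was number 120, between miR-362-3p at 147.5 and miR-145a-3p at 142 RPM. miR-582-5p was number 296, between miR-351-3p at 4.64 and miR-29c-5p at 4.58 RPM. Each member differed from these neighbours by less than its own SD within either group. Among the members the order miR-7a-5p, miR-218-5p, miR-582-3p, miR-582-5p was the same in all 6 libraries. The members are 21 to 23 bases long, so these RPM levels differ little from levels per length.

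The arms of the miR-582 hairpin kept a similar proportion in both groups. The 5p arm made up 3.68%, 3.27% and 2.07% of the reads of both arms in TGF-beta replicates 1, 2 and 3, against 3.30%, 2.62% and 3.26% in control replicates 1, 2 and 3. Exact 95% Clopper-Pearson intervals, which cover counting error only, ran from 1.43% to 2.89% in TGF-beta replicate 3, the lowest share, and from 2.91% to 4.58% in TGF-beta replicate 1, the highest. The mean share was 3.01% ± 0.84 in TGF-beta and 3.06% ± 0.38 in control libraries (SD, n = 3 each), and the groups overlapped. On the log2(RPM + 1) scale, 5p minus 3p was −4.81 ± 0.36 in TGF-beta and −4.62 ± 0.19 in control libraries. The added 1 weighs on the rare 5p arm, so this is not the plain log2 ratio of the reads. The groups differed by −0.19, by −0.13 with 0.5 added in place of 1 and by −0.42 with 5 added. With 1 added but without TGF-beta replicate 3 the difference was 0.01, so its sign rests on that library.

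miR-7a-1-3p, the arm that belongs to the Hnrnpk hairpin alone, was not used to choose the members. It had 8.05, 7.20 and 5.21 RPM in TGF-beta replicates 1, 2 and 3, against 5.91, 4.85 and 5.87 RPM in control replicates 1, 2 and 3. These levels rest on only 47 to 75 reads in TGF-beta and 45 to 58 reads in control libraries. The groups overlapped, and the log2 fold change of 0.24 (SE 0.19) did not pass (limma with Benjamini-Hochberg over all names, adjusted p = 0.636, and from 0.177 to 0.895 over the alternatives). edgeR and DESeq2 on the recovered reads did not call it either, and its unadjusted p was also above the threshold. Whether its change differs from that of miR-7a-5p was not tested.

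Per library, miR-7a-1-3p made up 0.172%, 0.129% and 0.083% of the reads of miR-7a-1-3p and miR-7a-5p together in TGF-beta replicates 1, 2 and 3, against 0.132%, 0.123% and 0.195% in control replicates 1, 2 and 3. The exact interval of TGF-beta replicate 3, 0.061% to 0.11%, does not reach that of control replicate 3, 0.147% to 0.253%, while the other libraries lie between them. The mean was 0.128% ± 0.04 in TGF-beta and 0.15% ± 0.04 in control libraries (SD, n = 3 each), and the groups overlapped. Because miR-7a-5p also comes from Mir7-2, this share is not an arm ratio of the Hnrnpk hairpin.

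miR-218-1-3p, the partner arm of the Slit2 hairpin, was near the limit of detection. It had 7, 5 and 2 reads in TGF-beta replicates 1, 2 and 3, against 9, 4 and 7 reads in control replicates 1, 2 and 3, and was not tested. Its share of the reads of miR-218-1-3p and miR-218-5p was 0.16% ± 0.09 in TGF-beta and 0.142% ± 0.07 in control libraries (SD, n = 3 each), a difference not detectable at this depth. For each of the 3 pairs of names, TGF-beta replicate 3 had the lowest share of the rarer arm among the 6 libraries.

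**Figure D2:**
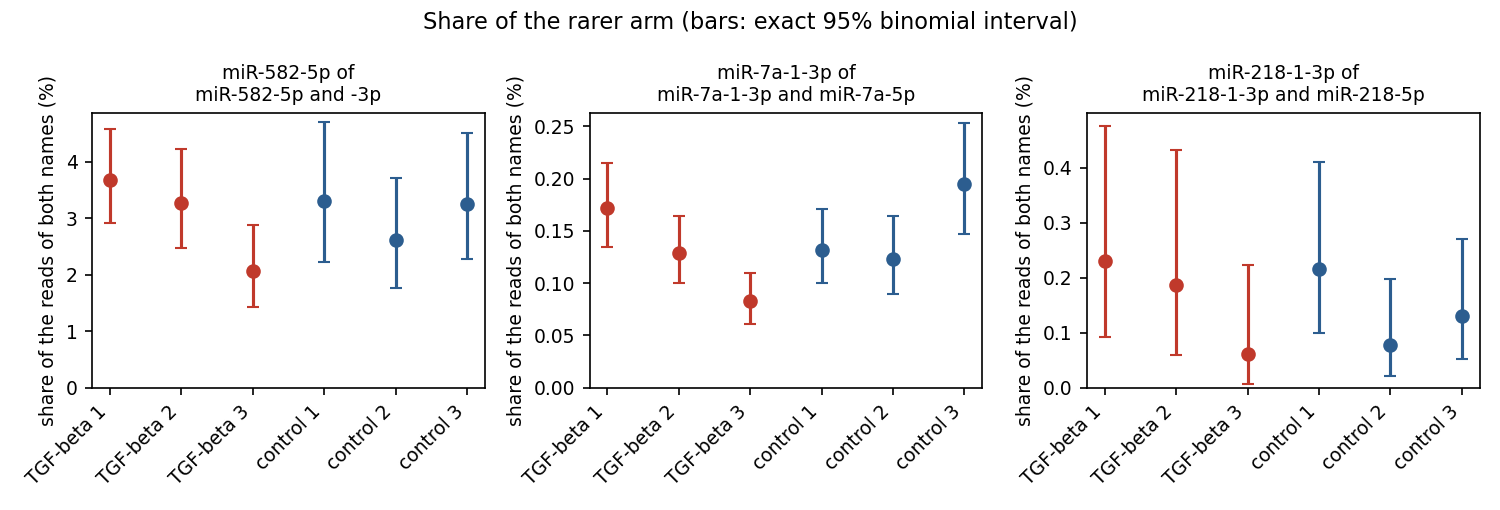
Share in percent (vertical axes, each from 0) of the rarer arm among the reads of the 2 names given above each panel, for each TGF-beta library (red, left) and control library (blue, right); bars are exact 95% binomial intervals. The groups overlap in every panel, and TGF-beta replicate 3 has the lowest share in each, 2.07%, 0.083% and 0.062%.

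miR-7b-5p, which shares the seed of miR-7a-5p, was almost absent. It was at 0, 0.317 and 0.111 RPM in TGF-beta replicates 1, 2 and 3, and at 0.204, 0.324 and 0 RPM in control replicates 1, 2 and 3. In all 6 libraries this is at or under 3 reads, the floor that a count of 0 allows (0.317 to 0.333 RPM in TGF-beta and 0.306 to 0.324 RPM in control libraries), and it was too low to be tested. Among the names analysed here, nearly all reads with this seed were counted as miR-7a-5p. How the authors counted reads that match several names is not stated.

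The names whose profile over the 6 libraries was most like that of each member were found by the root mean square difference of log2(RPM + 1), each name centred on its own mean. For miR-582-3p these were miR-181a-2-3p (0.153), miR-155-5p (0.167) and miR-27b-5p (0.168), where the median over all tested names was 0.499. For miR-582-5p they were miR-744-3p (0.085), miR-199a-3p (0.19) and miR-17-5p (0.191), with a median of 0.477. The other arm of its own hairpin was not among these 3. For miR-218-5p they were miR-188-5p (0.114), miR-466b-3p (0.137) and miR-6516-5p (0.148), with a median of 0.408. For miR-7a-5p they were miR-25-5p (0.132), miR-350-5p (0.178) and miR-30b-3p (0.18), with a median of 0.415. A small difference here mostly says that 2 names differ between the groups in the same direction, though not always by a similar amount. The log2 fold changes of the names listed ran from 0.525 to 0.874 for miR-582-3p and from 0.316 to 0.674 for miR-582-5p. For miR-218-5p they ran from −0.865 to −0.562, and for miR-7a-5p from 0.291 to 0.647.

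Whether a position inside an intron went with a common direction was examined in 38 other miRNAs known from introns, with 1 arm of each. Of these, 36 were listed and 31 tested. By limma at an adjusted p under 0.05, none was higher with TGF-beta and 4 were lower. At that threshold 4.07% of all tested names were higher and 3.83% lower. This is 12.9% of the tested list against 7.89% of all names, and 6 of the 31 (19.4%) had an unadjusted p under 0.05, against 15.3% of all names. The list median log2 fold change was −0.08, against −0.05 over all tested names, and 12 of the 31 values (38.7%) were positive, against 40.4% of all names. The listed arm was the less abundant one for 7 hairpins. With the more abundant arm in its place, a choice made after seeing the data, 5 of 32 passed as lower and none as higher. The name added is miR-335-3p, which averaged 2.38 RPM over the 6 libraries. edgeR and DESeq2 on the recovered reads each called 4 of these other intronic names.

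The lower ones include miR-188-5p, from an intron of the chloride transporter gene Clcn5, whose profile was the most like that of miR-218-5p. It had 21.4, 16.8 and 20.5 RPM in TGF-beta replicates 1, 2 and 3, against 30.6, 38.7 and 40.3 RPM in control replicates 1, 2 and 3, and fell by 0.86 in log2 terms (SE 0.16, with an adjusted p of 0.00171 by limma, and from 9.72e-05 to 0.0612 over the alternatives). miR-486a-5p, a muscle miRNA from an intron of Ank1, fell by 0.78 (SE 0.13, limma adjusted p = 0.000538, and from 5.48e-07 to 0.0102 over the alternatives), though a near-identical copy may share its reads. The hosts of miR-486a-5p, miR-532-5p and miR-378a-3p are given as background, since only that of miR-188-5p among these could be looked up in the annotation. miR-532-5p, also from Clcn5, fell by 0.44 (SE 0.10) and miR-378a-3p, from the metabolic regulator gene Ppargc1b, by 0.42 (SE 0.09, limma adjusted p = 0.00821 and 0.00402). Over the alternatives their adjusted p ran from 0.0025 to 0.14 and from 0.00325 to 1. With miR-21a-5p, the most abundant name, left out of the totals, the median of all names moved by 0.155 and the calls of miR-532-5p and miR-378a-3p ended (limma adjusted p = 0.14 and 0.118). In that setting the list median was 0.09, against 0.11 over all tested names, and 21 of the 31 values were positive. Quantile normalization ended the calls of miR-188-5p, miR-532-5p and miR-378a-3p (limma adjusted p = 0.0612, 0.0858 and 1). That of miR-532-5p was also lost with median scaling (0.0512), without TGF-beta replicate 2 (0.0776) and without control replicate 1 (0.0557). With miR-21a-5p left out the members were at 0.99 for miR-582-3p, 0.81 for miR-582-5p, 0.71 for miR-7a-5p and −0.50 for miR-218-5p.

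**Figure D3:**
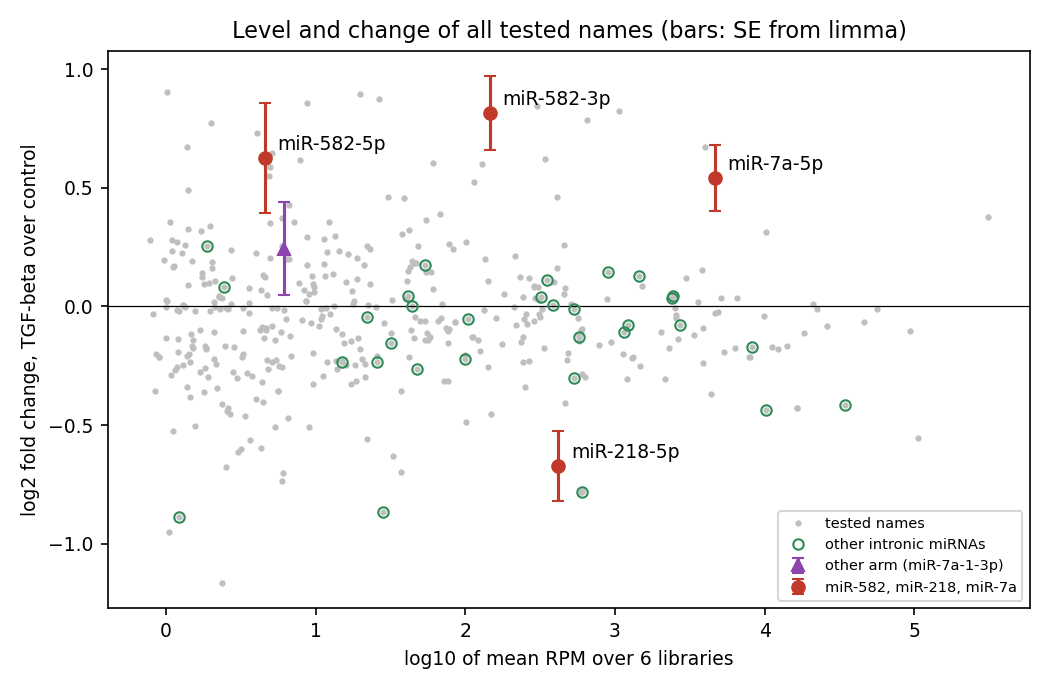
Log2 fold change of TGF-beta over control (vertical axis) against the log10 of the mean RPM over the 6 libraries (horizontal axis) for the 418 tested names (grey), with the 4 members (red) and miR-7a-1-3p (purple) shown with their SE and the other intronic miRNAs circled in green. miR-582-3p, miR-582-5p and miR-7a-5p lie above 0 at 0.82, 0.63 and 0.54, miR-218-5p lies below at −0.67, and the other intronic miRNAs lie on both sides of 0.

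Since miR-218 and miR-7a are known from neurons and endocrine cells, 10 neural and neuroendocrine miRNAs were examined beside them. Of these, 8 were listed and 5 tested, and none passed limma, edgeR or DESeq2. None had an unadjusted p under 0.05 either, as 15.3% of all tested names did, so that among 5 names a count of 0 says little. All 5 values were negative, with a median of −0.20 against −0.05 over all tested names, of which 40.4% were positive. The 5 include both arms of miR-9, and miR-9-3p was at only −0.01. With median scaling, edgeR or DESeq2, 4 of 5 were negative. With miR-21a-5p left out 3 of 5 were negative, and the median was −0.03. The 2 most abundant were miR-9-5p at 1215 ± 94.9 RPM in TGF-beta and 1408 ± 16.4 RPM in control libraries and miR-128-3p at 455 ± 26.2 RPM in TGF-beta and 521 ± 35.4 RPM in control libraries (SD, n = 3 each). miR-375-3p, the defining miRNA of pancreatic islets, was at 0.423 to 0.752 RPM in TGF-beta and 0.539 to 0.815 RPM in control libraries. Summed, the list ran from 1742 to 1843 RPM in TGF-beta and from 2041 to 2098 RPM in control libraries. All 3 treated libraries were lower, and most of the sum was miR-9-5p. With miR-21a-5p left out, the log2 fold changes of miR-9-5p and miR-128-3p were −0.04 and −0.03. The part of this list in the results of miR-218-5p and miR-7a-5p was not tested.

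The direction of each member was the same in every alternative that gave it a value. There were 16 for miR-582-3p, miR-218-5p and miR-7a-5p and 15 for miR-582-5p, which has no value where at least 10 RPM was required. This is a description, since the members were chosen with this contrast known. The groups of miR-582-3p, miR-218-5p and miR-7a-5p did not overlap, so leaving out a library or changing the pseudocount cannot turn their sign. The log2 fold change ran from 0.68 to 0.99 for miR-582-3p, from −0.81 to −0.50 for miR-218-5p and from 0.38 to 0.71 for miR-7a-5p. It ran from 0.37 to 0.90 for miR-582-5p, where the added pseudocount weighs most, and was 0.39 when TGF-beta replicate 1 was left out and 0.88 when TGF-beta replicate 3 was. For miR-7a-5p it was lowest without control replicate 3, the library with its lowest level.

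**Figure D4:**
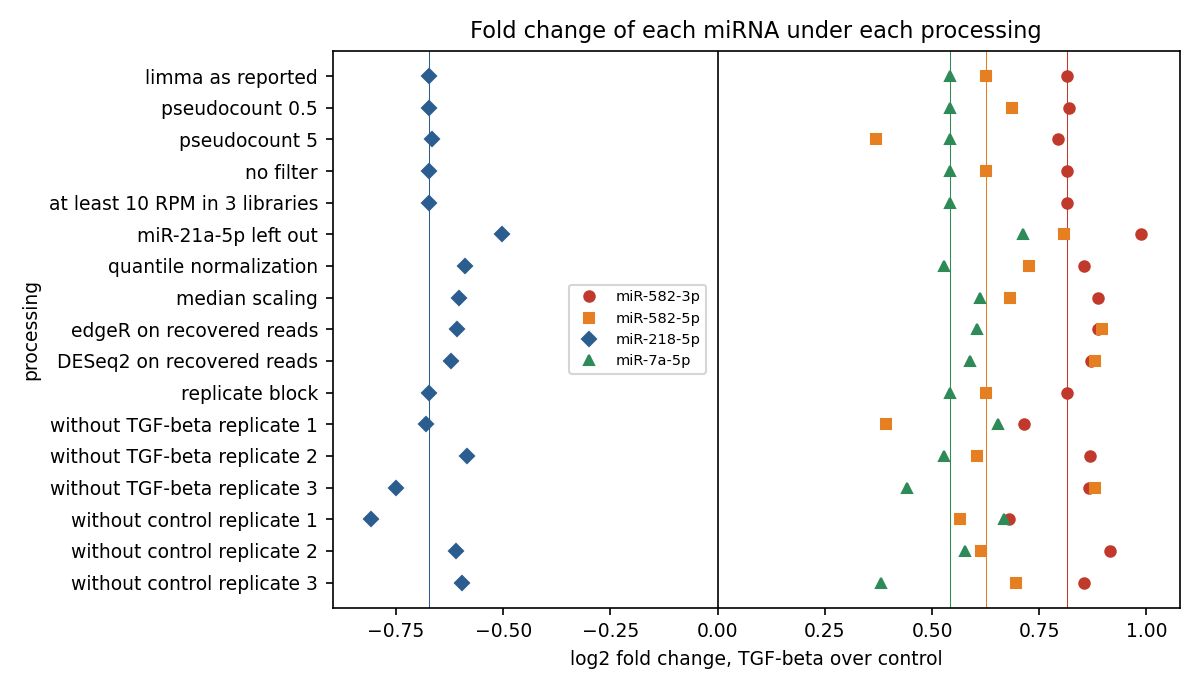
Log2 fold change of TGF-beta over control (horizontal axis) of the 4 miRNAs under the processing as reported (top row, also drawn as thin vertical lines) and under each alternative (rows below). All values of miR-582-3p, miR-582-5p and miR-7a-5p lie above 0 and all values of miR-218-5p below 0; miR-582-5p moves the most, between 0.37 and 0.90, and has no value where at least 10 RPM was required.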

How the data were processed

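Small RNA libraries of C2C12 cells, 3 with TGF-beta and 3 control, were grouped by their treatment label. The authors deposited 1 table of 1065 miRNA names, headed TPM, along with their group means and a p-value without adjustment, neither of which was used here. The deposited values sum to 1000000 in each library and are whole multiples of 1 step, so they are RPM. Dividing by that step returned whole reads for 100% of values, to within 0.01 read. The submitters' processing notes give mm9 as the build. The aligner, the counter, the miRNA annotation and any molecular identifiers were not given in the sources used here, so intervals and floors cover counting error only.

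The 418 names that reached 1 RPM in 3 or more libraries were compared on log2(RPM + 1), a scale that understates the change of low names, by limma 3.58.1 (R 4.3.3) with its trend option. P-values were two-sided with Benjamini-Hochberg adjustment over all 418 names, and the threshold was 0.05. The alternatives were pseudocounts of 0.5 and 5, other filters and scalings, edgeR 4.0.16 and DESeq2 1.42.0 on the recovered reads, a replicate block and each library left out in turn. The limma step was tested on simulated data. Separate cultures are not stated in the labels, so the spread behind the p-values is that of these libraries and may be technical.

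Members, lists and tests were chosen with earlier results of these data known. Named are the members, their other arms, names with a member's seed, intronic or neural names past the threshold or else the 2 most abundant, the 3 names most like each member, and its neighbours in level. The text also gives miR-375-3p and the muscle and retina markers. Sequences are RefSeq's (GRCm38.p6) and host genes were looked up in GENCODE M21. Of the 38 other intronic names 34 had a sequence entry, and for 31 the listed host was found. miR-378a-3p, miR-486a-5p, miR-532-5p and miR-151-5p had none, so their hosts were not checked. Of the remaining 3, miR-191-5p and miR-425-5p lie in a noncoding gene in that annotation.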

Additional observations from a re-analysis of the deposited data

How the results depend on the processing

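The log2 fold changes of the 4 members moved by less than 1 SD between replicates in all alternatives that gave a value. Over all names, 33 passed limma, 17 higher and 16 lower. There were 19 of 1065 without a filter, 20 of 244 with at least 10 RPM and 10 of 418 with quantile normalization. With a library left out there were from 17 of 406 (without TGF-beta replicate 2) to 36 of 404 (without TGF-beta replicate 3), and 18 of 404 without control replicate 1. Leaving out miR-21a-5p gave 25 higher and 7 lower of 417. The split was 18 and 9 with median scaling, and 19 and 10 with edgeR and with DESeq2. Of the members, 3 passed as reported, 0 with quantile normalization, 4 with miR-21a-5p left out (miR-582-5p added) and 2 without a filter and with at least 10 RPM (miR-7a-5p lost). With a library left out there were from 1 (miR-582-3p, without TGF-beta replicate 2) to 3, which without TGF-beta replicate 3 include miR-582-5p and not miR-7a-5p. Nothing is read from these counts of members, since the members were chosen with this contrast known. Of the other intronic miRNAs, 4 passed, against 2 with miR-21a-5p left out, 1 with quantile normalization, 5 with the more abundant arm of each hairpin and from 3 to 5 with a library left out. The group difference between the miR-582 arms on the log2(RPM + 1) scale ran from −0.32 to 0.0149 with a library left out. Its sign turned without TGF-beta replicate 3. It was −0.13 with a pseudocount of 0.5 and −0.42 with a pseudocount of 5. The cause of these changes was not tested, except that each left-out library also leaves fewer samples. With the replicate number as a block, 32 names passed and the members' calls were the same 3. Same-numbered libraries did not deviate together (correlations of −0.0843 to −0.0677, against 0.00694 to 0.0747 for different numbers). The deviations were taken from the mean of each group of 3, so these correlations are not independent of each other. They cannot settle whether same-numbered libraries had a culture or a day in common. Reads were few for miR-582-5p, miR-7a-1-3p, miR-218-1-3p and miR-7b-5p, but not for miR-582-3p, miR-218-5p or miR-7a-5p. For miR-582-5p the SD between TGF-beta replicates was 38.3% of the mean, above the counting error of 17.4% at the lowest value. In control libraries it was 11.9%, below the counting error of 18.6%. The source of this spread was not tested.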
